A study of Arabidopsis thaliana with 8 samples.

Results

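Of 692 probes annotated with exactly 1 Arabidopsis thaliana gene, 43 were selected because their deposited intensity was exactly 0 on at least 4 of 8 arrays. CCB3 also met that rule, which brings the probes that met it to 44, but it is left out here. PIFI and AT1G29070 are not described either, and neither met the rule. The 43 probes stand for 43 different genes. They were chosen by the same 8 values per probe that are described below, so those values are a description of the selection and support nothing by themselves. The arrays measured total RNA of 2 genotypes, 4 samples each, all of ecotype Columbia 0: wild type (WT) and the tic40 mutant, numbered 1 to 4 in both. The labels give no allele, tissue, age or growth condition nor whether each sample was a plant pool or culture of its own, so the spread between samples may be technical. No probe of the annotation names TIC40 itself, and the genotype was not checked on the arrays.

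TIC40 is a protein of the inner chloroplast envelope that works with stromal chaperones during the import of nuclear-encoded precursor proteins. Most chloroplast proteins are made in the cytosol and pass through this machinery. The sources used here do not state how an exact 0 arises in the table. A 0 on a hybridisation array does not show that a transcript was absent, since a weak, short or badly placed probe can give the same reading.

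Values are given as deposited, as relative intensities on a linear scale with medians of 0.354 to 0.604 per array over all 3439 probes. Of 8 listed markers of green tissue 4 were on single-gene probes, and these were above 0 on all arrays. PSBW, a subunit of photosystem II, ranged from 12.7 to 24.1 in WT and from 21.1 to 25.3 in tic40, and LHB1B2, a light-harvesting protein, from 3.96 to 14.5 and from 2.47 to 2.90. PRK and SBPASE, enzymes of the Calvin cycle, lay between 0.359 and 0.942. None of the 2 root, 4 seed and 4 flower markers listed was on a single-gene probe. Of all single-gene probes 88.4% were above 0 on all 8 arrays, so signal on the 4 green markers does not identify the tissue. The tissue was thus not checked. The WT arrays did not form a single group: after quantile normalization WT 1 and WT 2 correlated across probes at 0.947 and WT 3 and WT 4 at 0.946, but these pairs correlated with each other at only 0.707 to 0.722. The correlations of WT 1 and WT 2 with the tic40 arrays were 0.874 to 0.907, those of WT 3 and WT 4 with the tic40 arrays 0.739 to 0.800, and those among the tic40 arrays 0.934 to 0.975. Arrays have no sequencing depth, and their number limits the precision.

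Selected probes made up a share of the single-gene probes close to that in the rest of the table. With CCB3 counted, 44 of 692 single-gene probes (6.36%) were at 0 on at least 4 arrays, against 45 of 870 probes of several genes (5.17%), 103 of 1877 probes without a gene name (5.49%) and 5.58% of all probes. Most of them had no signal anywhere: 29 of the 43 were at 0 on all 8 arrays, 8 on 7 arrays, 3 on 6, 2 on 5 and 1 on 4. Of the 692 single-gene probes, 612 were above 0 on every array, and 36 were at 0 on 1 to 3 arrays. Among single-gene probes with any 0, mixed readings were thus more common than zeros on all 8 arrays. The edge of the selection was thinly filled. Just inside it, AT5G66090 was at 0 on 4 arrays, and just outside it AT1G12230, AT1G54520, AT1G73120, AT3G45770 and AT5G05330 were at 0 on 3. The highest single value of these 5 was 0.247, for AT5G05330 on tic40 2, and AT1G54520 had 0.190 on WT 4 and 0.0352 to 0.205 on the tic40 arrays.

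**Figure D1:**
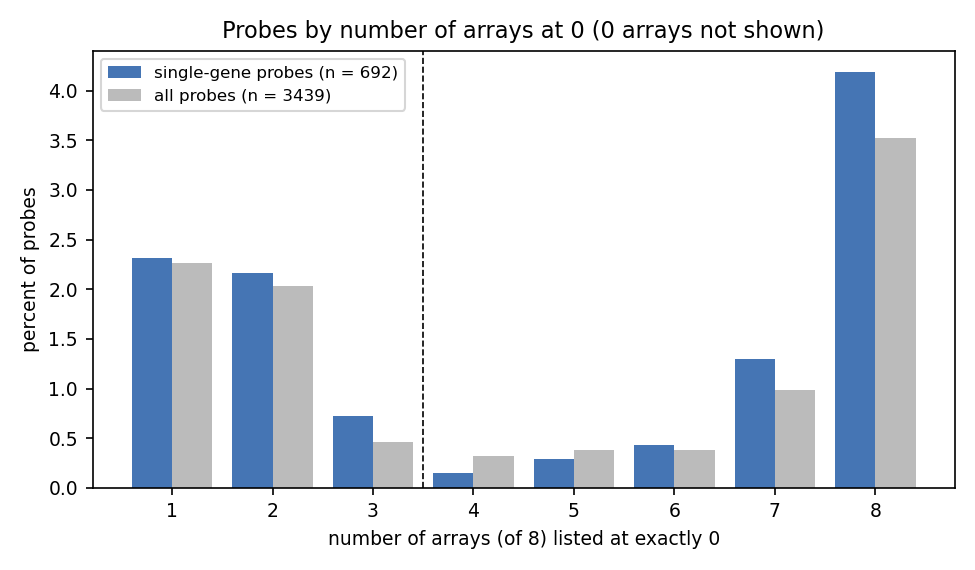
Percent of probes (y axis) by the number of the 8 arrays on which they were listed at exactly 0 (x axis, 1 to 8), for the 692 single-gene probes in blue and all 3439 probes in grey, with a dashed line at the edge of the selection. The tallest bars stand at 8 arrays, with 4.19% of single-gene probes and 3.52% of all probes, and the lowest lie around 4 arrays.

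Thylakoid proteins had 4 members among the 43, and 3 of these had signal on at least 1 array. Roles here and below are background knowledge, the genes were grouped after their values had been seen, and no group was tested. Of all 43 members 29 were at 0 on every array, so a group count near that share is no trait of the group. AT1G76450 encodes a protein with a PsbP domain, named after the extrinsic PsbP subunit of photosystem II. It was at 0 on WT 1 and WT 2, at 0.106 on WT 3 and 0.116 on WT 4, and at 0 on all 4 tic40 arrays. Its signal was thus seen on both arrays of a single WT pair, at percentiles 7.57 and 8.48 of the values above 0 on those arrays. AT5G13410, a peptidyl-prolyl isomerase of the FKBP type, which speeds up the folding of proteins around proline, was at 0.0317 on WT 4, at 0.00460 on tic40 4 and at 0 on the other 6 arrays. AT5G52970, a protein of the thylakoid lumen, was at 0.0377 on tic40 4 and at 0 on the other 7. It was the only member with signal in tic40 alone, and its value stood at percentile 0.923 of the values above 0 on tic40 4. AT3G44020, also annotated to the lumen, was at 0 on all 8 arrays.

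Factors of RNA processing and translation had 3 of 4 members at 0 on every array. These were AT5G65220, ribosomal protein L29 of the plastid, AT5G46420, a RimM-type factor of the maturation of small ribosomal subunits, and AT1G18440, a peptidyl-tRNA hydrolase, which recycles stalled peptidyl-tRNA. AT1G12800, a protein with an S1 RNA-binding domain, was at 0.0178 on WT 1 and at 0 on the other 7 arrays. A probe that the annotation assigns to AT1G12800 together with another gene was likewise at 0 on all 8 arrays.

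Among 6 metabolic enzymes 4 were at 0 on every array. They were UPP, a uracil phosphoribosyltransferase that salvages uracil, AT3G06200, a guanylate kinase, AT5G16230, an acyl-carrier-protein desaturase of fatty acid synthesis, and AT2G27680, an oxidoreductase of the aldo/keto reductase type. AT1G10310, a reductase of pterin aldehydes, was at 0.0292 on WT 1 and at 0 on the other 7 arrays. AT5G14590, an NADP-dependent isocitrate dehydrogenase, was at 0.00210 on WT 3 and at 0 elsewhere. That value stood at percentile 0.123 of the values above 0 on WT 3, so it was among the dimmest readings of that array.

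Proteins of signalling and defence also had 4 members, of which 2 had no signal on any array. IAA31 belongs to the Aux/IAA repressors of auxin-responsive genes, and AT1G66090 encodes a TIR-NBS protein of the disease resistance class. Both were at 0 on all 8 arrays. The other 2 belong to the protein phosphatases, and each had signal on a single WT array. AT1G67820, a phosphatase of type 2C, was at 0.00752 on WT 1, and AT5G25510, a regulatory B subunit of phosphatase 2A, at 0.0201 on WT 4. Both were at 0 on the remaining 7 arrays, so the signal of neither was repeated within WT.

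Proteases, unfolding ATPases and a rhodanese-type isomerase, 4 members in all, were at 0 on every array, whereas the isomerase AT5G13410, described with the thylakoid proteins, had signal on 2 arrays. Had AT5G13410 been placed in this group, the group would not have been at 0 throughout. The 4 were AT5G49840, a ClpX-type ATPase that unfolds substrates for the Clp protease, AT1G35340, a protein with a Lon protease domain, AT2G45500, an ATPase of the AAA class, and AT5G19370, which joins a rhodanese domain to a peptidyl-prolyl isomerase domain. Both secreted or cell wall proteins had signal on WT 1 and on no other array. AT1G20130, a lipase of the GDSL type, was at 0.103 there, at percentile 9.91 of the values above 0 on WT 1, the highest percentile of any member. AT1G62760, an inhibitor-type protein of pectin methylesterases, was at 0.0330 there.

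The remaining members with a known product were 6, of which 4 were at 0 on all 8 arrays. ILA, a large HEAT-repeat protein related to the yeast translation regulator Gcn1, AT1G73430, a subunit of the Golgi tethering complex COG, and AT5G63460, a protein with a SAP domain, were among these 4. The fourth was AT5G65360, a gene for histone H3.1, which packages newly replicated DNA. AT1G09200, which also encodes histone H3.1 and is not a member, was above 0 on all 8 arrays, at 0.169 to 0.374 in WT and 0.132 to 0.161 in tic40. With signal on the AT1G09200 probe, the 0 of the AT5G65360 probe cannot be read as a lack of H3.1 transcript. Whether either probe also binds transcripts of the other gene was not tested.

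The 2 others had signal that differed between arrays of the same genotype. AILP1, the aluminium-induced protein with YGL and LRDR motifs, was at 0.0337 on WT 1, 0.00984 on WT 2, 0 on WT 3 and WT 4, 0 on tic40 1 to 3 and 0.00115 on tic40 4. Its WT signal lay in the opposite pair to that of AT1G76450. AT1G21350, a protein of the thioredoxin superfamily, was at 0 on WT 1, 0.0261 on WT 2, 0.000265 on WT 3, 0.00162 on WT 4 and 0 on the 4 tic40 arrays. It was the only member with signal on 3 arrays of a genotype and none of the other, but 0.000265 was the lowest value above 0 on WT 3.

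Of the 13 members for which no role is given here, 11 were at 0 on all 8 arrays. These 11 were AT1G07970, AT1G32190, AT1G49940, AT1G68160, AT2G46220, AT3G47080, AT3G50350, AT4G15790, AT4G22830, AT5G25990 and AT5G48270. AT4G38490 was at 0 on WT 1, 0.0277 on WT 2, 0 on WT 3, 0.00661 on WT 4 and 0 on the 4 tic40 arrays. AT5G66090 was at 0 on WT 1 and WT 2, 0.0282 on WT 3, 0.0251 on WT 4, 0 on tic40 1, 0.0111 on tic40 2, 0 on tic40 3 and 0.0152 on tic40 4. Its 2 WT values were above its 2 tic40 values, and both genotypes also held zeros, so the genotypes overlapped.

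**Figure D2:**
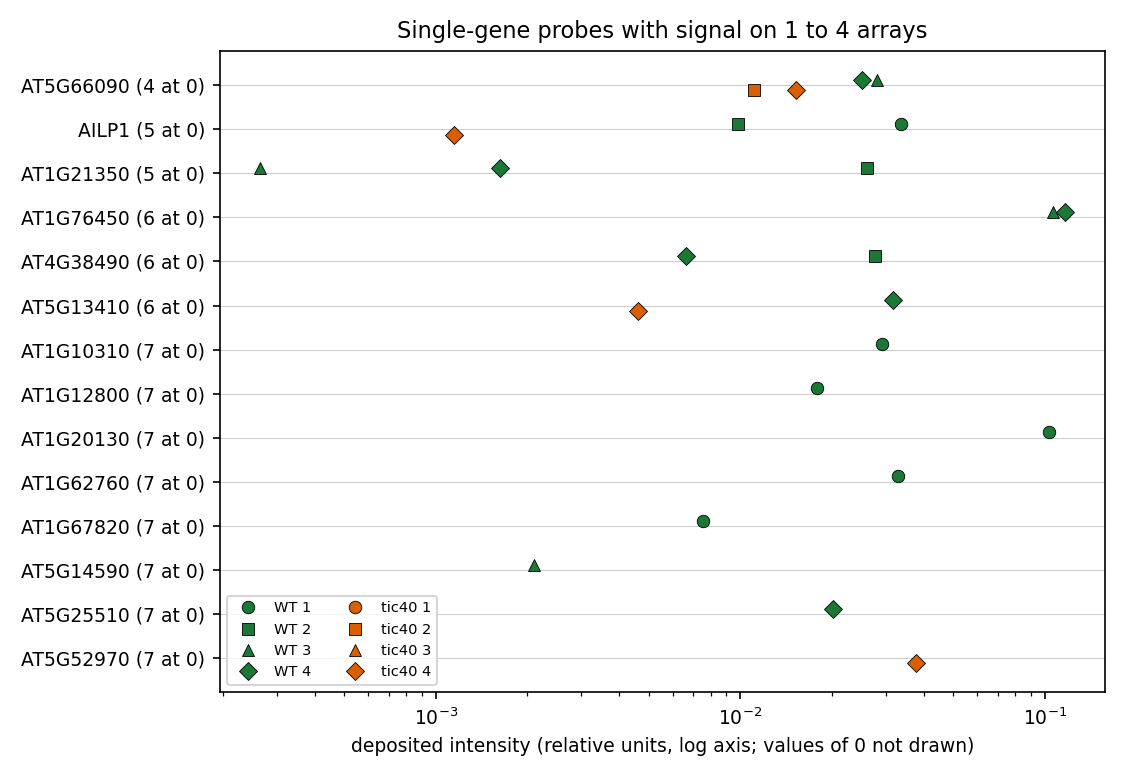
Deposited intensity (x axis, relative units, log axis) of the 14 members with signal on some arrays (y axis, with the number of arrays at 0). Each point is an array above 0, green for WT and orange for tic40, with the shape giving the sample number, and zeros are not drawn. AT1G76450 and AT1G20130 hold the 3 points above 0.1, and 5 of the 24 points are tic40 arrays.

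Where members had signal, it was dim. The 24 values above 0, of 344 in all, ranged from 0.000265 to 0.116 with a median of 0.0226. In their own arrays 11 of the 24 lay within the lowest 1% of the values above 0 and 21 within the lowest 5%. The exceptions were the WT 3 and WT 4 values of AT1G76450 and the WT 1 value of AT1G20130.

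Some members were also represented on probes that the annotation assigns to 2 to 4 genes. This held for 7 members, and 6 of those shared probes were above 0 on all 8 arrays. The members were AT2G46220, IAA31, AT5G13410, AT1G67820, AILP1 and AT5G16230 (shared probes above 0) and AT1G12800 (shared probe at 0). A shared probe can read its other genes, so these signals are not levels of the members.

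Signal in a single genotype was rarely repeated across its arrays. Of the 43 members, 10 had signal in WT only, 1 in tic40 only and 3 in both. Over all probes 1.05% had signal in WT only and 0.233% in tic40 only. Against the 71 probes of the whole table that were likewise at 0 on at least 4 arrays but not on all, 10 of 14 members (71.4%) had signal in WT only, beside 50.7% of the 71, and 1 of 14 (7.14%) in tic40 only, beside 11.3%. The 71 include the 14 members and also CCB3, which the 14 leave out. These sets are thus not alike, and with so few members a single probe moves the shares. Of the 10 members with signal in WT only, 7 had it on 1 array, 2 on 2 arrays and 1 on 3. No probe of the whole table was above 0 on all 4 arrays of a genotype and at 0 on all 4 of the other. Fisher's exact test (two-sided) of arrays above 0 by genotype cannot give less than p = 0.0286, which needs exactly that pattern and so exactly 4 zeros. At 5, 6 or 7 zeros the smallest exact p is 0.143, 0.429 and 1, so the number of zeros that chose 13 of the 14 members also kept them from passing. Among members the lowest exact p was 0.143 for AT1G21350, with an exact adjusted p = 1 over the 235 probes with both zeros and signal. AT1G76450 and AT4G38490 had an exact p = 0.429 each, and the other 11 had an exact p of 1. Of the 235 probes, 11 of which had the 4 zeros needed, 0 (0%) had p under 0.05 before adjustment. For the 13 members the test is void and says nothing for or against a difference between the genotypes.

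WT 1 weighed on this count. Signal on WT 1 alone was the pattern of 5 members, AT1G10310, AT1G12800, AT1G20130, AT1G62760 and AT1G67820, and none of them was above 0 on WT 2, the array most like it. Without WT 1, 5 members had signal in WT only and 1 in tic40 only. Over all probes 12 had signal on WT 1 alone, 8 on WT 2 alone, 2 on WT 3 alone, 6 on WT 4 alone and 0, 0, 4 and 2 on tic40 1 to 4 alone. In samples 1 and 2 taken by themselves 8 members had signal in WT only and 1 in tic40 only, and in samples 3 and 4 by themselves 5 and 2. With fewer arrays, signal in a single genotype needs fewer zeros. No share over all probes is given for the counts without WT 1 or in these subsets, so they are a description only.

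The members above 0 numbered 6, 3, 4 and 6 on WT 1 to 4, and 0, 1, 0 and 4 on tic40 1 to 4. All probes showed another order, with 260 and 277 zeros on WT 1 and WT 2, 178 and 174 on WT 3 and WT 4, and 185 to 204 on the tic40 arrays. WT 1 therefore had the second highest number of zeros in the table, and shared with WT 4 the highest number of members with signal. The zeros were largely the same probes from array to array: WT 1 and WT 2 shared 211, which is 81.2% of those of WT 1 and 76.2% of those of WT 2, and WT 3 and WT 4 shared 155 (87.1% and 89.1%). Between the pairs, 59 probes were above 0 on WT 3 and WT 4 and at 0 on WT 1 and WT 2, and 4 the other way, against 5 and 6 for the matching tic40 pairs. Of the members, AT1G76450 and AT5G66090 followed the first of these patterns and AILP1 the second. What sets the WT pairs apart was not tested.

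**Figure D3:**
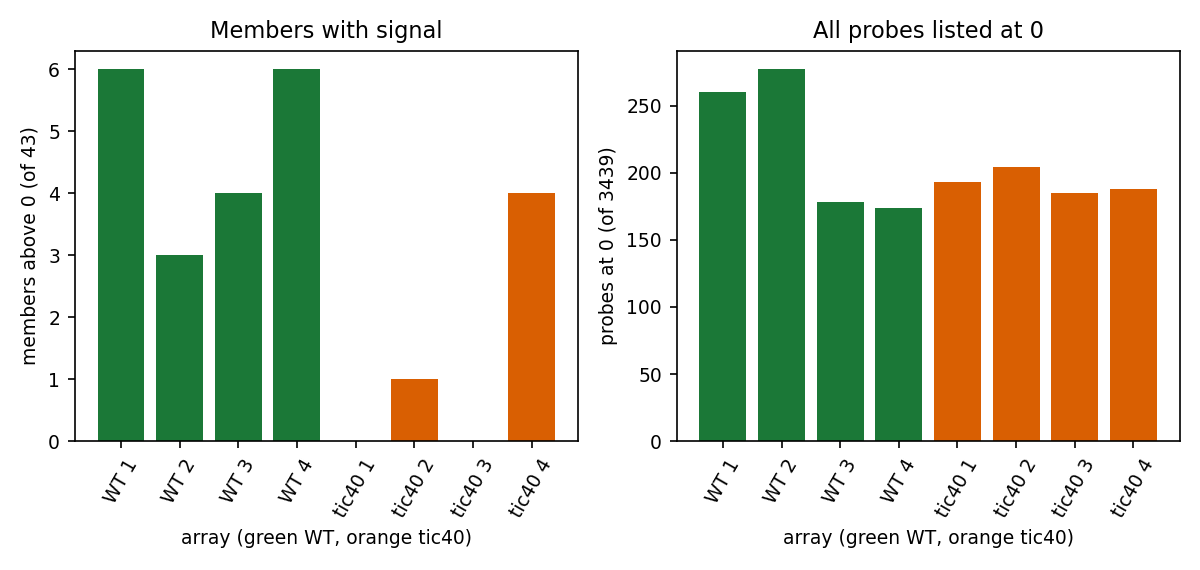
Number of the 43 members above 0 (left, y axis) and number of all 3439 probes at 0 (right, y axis) on each array (x axis), with WT in green and tic40 in orange. The WT arrays hold 3 to 6 members with signal and the tic40 arrays 0 to 4, while the zeros over all probes are most numerous on WT 1 and WT 2.

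In the fit across all probes, which asked whether intensity differed between tic40 and WT, 1 of the 14 members with some signal was called, beside 7.69% of the 3318 probes tested (5.36% lower in tic40). Only these 14 entered the fit. It left the pairing of same-numbered samples out. With a replicate block for the sample number, 5 of the 3318 probes were called, against 255 without it. The fit used limma on log2 quantile-normalised intensity, with each 0 set to percentile 1 of the values above 0 of its array and a call at a Benjamini-Hochberg adjusted p under 0.05. AT1G76450 was fitted as lower in tic40, with a limma adjusted p = 0.0165. It was at 0 on 6 of the 8 arrays, and these zeros also chose it. Most of its fitted values were thus levels put in place of a 0, so the call is no evidence of a difference between the genotypes. In the fit with a replicate block for the sample number the limma adjusted p = 0.0673 no longer passed. The call was also lost as deposited (limma adjusted p = 0.951), with median centring (0.670) and with a floor at percentile 5 (0.0539). With the same floor on every array, the lowest or the highest of the 8, the limma adjusted p was 0.277 and 0.299. It did not pass either when tic40 samples 1 to 4 were left out in turn (0.0614, 0.0562, 0.0558 and 0.0532). The other 13 members had adjusted p of 0.183 to 0.825, and AT5G66090 was the other member with an unadjusted p under 0.05 (limma adjusted p = 0.183).

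The level that stands in for a 0 took part in these fits. After quantile normalization it was 0.0583 and 0.0665 on WT 1 and WT 2, 0.0177 and 0.0147 on WT 3 and WT 4, and 0.0217 to 0.0311 on the tic40 arrays. For AT1G76450 and AT5G66090, then, the zeros of WT 1 and WT 2 entered the fit above those of tic40. AT1G21350, AT4G38490 and AT5G14590 had signal in WT only and yet were fitted as higher in tic40, without passing, because positive values under the floor kept their own level. When values under the floor were raised to it, 0 of the 10 members with signal in WT only were fitted as higher. AT5G52970, with signal in tic40 only, was fitted as lower in tic40 in both cases. As deposited, the level lay at 0.0144 to 0.0235 on the WT arrays and 0.0352 to 0.0403 on the tic40 arrays. In that setting limma called 357 of the 3318 probes tested, 311 of them higher in tic40. Of the 14 members tested it called 5, all as higher in tic40. These were AT1G10310, AT1G12800, AT1G67820, AT5G25510 and AT5G52970, of which 4 were at 0 on all tic40 arrays. No fold is given for any member for this reason.

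**Figure D4:**
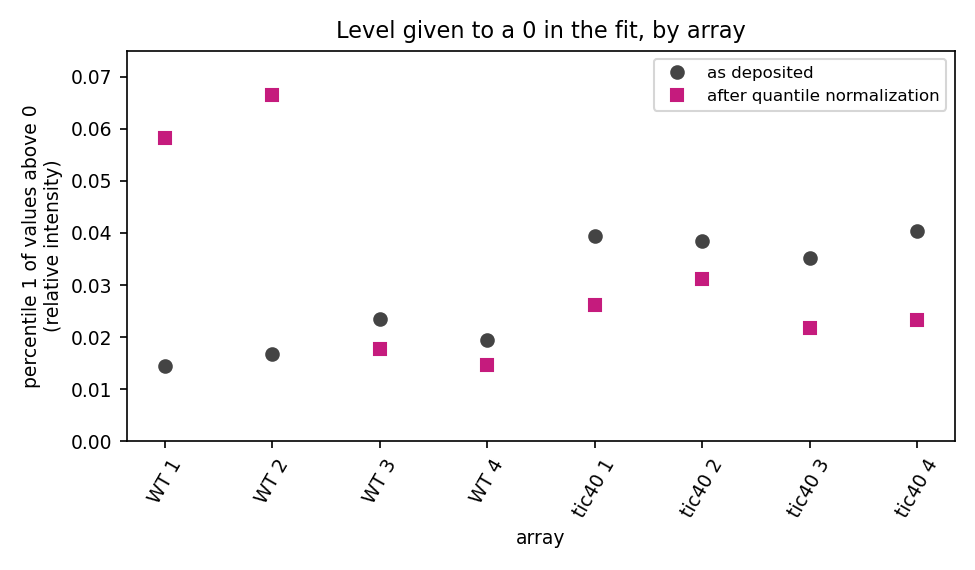
Level given to a 0 in the fit (y axis, percentile 1 of the values above 0, relative intensity) on each array (x axis), as deposited (dark circles) and after quantile normalization (pink squares). As deposited all 4 tic40 arrays lie above all 4 WT arrays, and after normalization WT 1 and WT 2 lie highest at 0.0583 and 0.0665.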

How the data were processed

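The deposited table holds 1 intensity per probe for 8 one-colour arrays. From the values, the deposited intensities are linear, relative and never negative. No source used here gives the scanner, the background correction, the scaling or the probe build, so no coordinates are printed. Genes came from the platform annotation, and 690 of 692 single names matched the TAIR10.1 table, all 43 members included. The family keywords were searched in gene symbols and synonyms alone, since that table holds no product descriptions. They matched 26 single-gene probes (3.76%) and 0 members, so the family counts are void. The members and lists were chosen with earlier results of these data known. Every member is named, with the 8 values of each that had signal.

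Zeros were compared by Fisher's exact test (scipy 1.17.1) and intensities with limma 3.58.1 in R 4.3.3, with genotype as the only term. A run on simulated arrays drew every sample independently, without the WT pairs or the pairing by number. It is therefore no check of the fit for these data. Probes at 0 on all arrays were not tested. The sample numbers were taken to pair the samples, since the deviations from genotype means of same-numbered samples correlated at 0.306, 0.310, 0.261 and 0.254. Between samples of different number the highest correlation was 0.12. The main fit ignores this pairing, and only the replicate block takes it into account. Alternatives were other thresholds for 0, scalings, floors, the replicate block and leaving out each sample.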

Additional observations from a re-analysis of the deposited data

Results flagged for a closer look

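In 12 of the 17 combinations of member and genotype with any signal, the highest sample stood far from the other 3, and in 11 of these the other 3 were at 0, so that any signal at all sets the sample apart. By chance about 5% of groups would be marked this way, but that rate is not meant for groups of zeros. On WT 1 these were AT1G20130 (0.103), AT1G62760 (0.0330), AT1G10310 (0.0292), AT1G12800 (0.0178) and AT1G67820 (0.00752). On WT 3 it was AT5G14590 (0.00210), and on WT 4 AT5G13410 (0.0317) and AT5G25510 (0.0201). On tic40 4 these were AT5G52970 (0.0377), AT5G13410 (0.00460) and AILP1 (0.00115). AT1G21350 stood apart on WT 2 at 0.0261, with 1 of the other 3 WT samples at 0.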

How the results depend on the processing

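The number of members was 43 and stayed within 1.5 times of that when at least 3, 5, 6 or all 8 arrays had to be at 0. It was 79 when values up to percentile 5 of the array also counted as no signal, 191 over all probes whatever their annotation, and 42 to 43 with each sample left out. Members with signal in 1 genotype only numbered 11. With values up to percentile 1 of the array taken as no signal they also numbered 11, but 11 in WT only and 0 in tic40 only. They were 3, 1 and 0 when at least 2, 3 or all 4 arrays of the genotype had to be above 0, 2 with values up to percentile 5 taken as no signal, 7 in samples 3 and 4 alone, and 6 to 12 with each sample left out, the lowest without WT 1. Of the members tested, limma called 1. The count was 5 as deposited, 3 with median centring, and 0 with a floor at percentile 5, with either common floor, with the replicate block and among probes above 0 on at least 4 arrays, which left 1 member to test. Unadjusted p-values under 0.05 were seen at 789 to 884 probes in those 5 settings. The count was 0 to 1 with each sample left out, 8 of 9 members tested in samples 1 and 2 alone and 3 of 9 in samples 3 and 4 alone. Over all probes limma called 255 of 3318. It called 357 as deposited, 237 with median centring, 252 with a floor at percentile 5, and 243 and 299 with the common floors. The replicate block left 5, and 251 were called among probes above 0 on at least 4 arrays. It called 965 of 3294 in samples 1 and 2 alone, 2001 of 3296 in samples 3 and 4 alone, and 40 to 242 with each sample left out. Common floors gave adjusted p of 0.277 and 0.299 for AT1G76450. The highest of the floors as a common floor, the raised values under the floor and the fits on samples 1 and 2 or 3 and 4 alone were chosen after seeing the data, and with 2 arrays per genotype those last fits see no more than the spread inside a pair. Which dim values are signal cannot be told from this table, because no background reading was used.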
